A study of Mus musculus with 115 samples.

Results

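The steroid receptors encoded on autosomes and the 5-alpha reductases form a set of 8 genes out of the 45699 quantified in prostate RNA from tumor-prone mice. The set was chosen by gene name. It holds the glucocorticoid receptor Nr3c1, the mineralocorticoid receptor Nr3c2, the estrogen receptors Esr1 and Esr2, the progesterone receptor Pgr, and the reductases Srd5a1, Srd5a2 and Srd5a3. The androgen receptor was left out because genes of the X chromosome are poorly quantified in these values. Each member was described over all libraries and set against 3 reference genes, namely Tgm4, a transglutaminase secreted by prostate epithelium, Chga, a secretory granule protein of neuroendocrine cells, and Col1a1, a collagen of stromal cells.

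Steroid receptors are transcription factors that bind a steroid, enter or stay in the nucleus and act on genes near their response elements together with chaperones, pioneer factors and coregulators. The 5-alpha reductases reduce steroids: Srd5a1 and Srd5a2 convert testosterone to the stronger androgen dihydrotestosterone, and Srd5a2 is known as the enzyme of the normal prostate. Srd5a3 is needed above all to make dolichol, the lipid on which N-glycans are assembled. In the prostate Nr3c1 and Esr1 are known in both stroma and epithelium, and Esr1 activates Pgr and Greb1 in reproductive tissues.

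Every library came from a male F2 mouse of the (TRAMP x WSB/EiJ) cross that carried the transgene, so the libraries form 1 group, with no untreated or transgene-negative library. In TRAMP mice a probasin promoter, active in androgen-responsive prostate epithelium, drives SV40 T antigen, which is a limit on how far these tumors stand for others. The mice descended from C57BL/6 TRAMP females and WSB/EiJ males, and each F2 mouse was therefore genetically distinct. According to the study's methods, RNA of small glands was taken from the ventral prostate, and the labels do not say which libraries these were.

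Values were TPM, a measure of transcript abundance corrected for transcript length and scaled to the same total in each library, so depth is unknown and no counting interval can be given. The 20 most abundant genes of a library took 48.9 to 81.8% of its TPM, and a library with more of these lists less of every other gene. Relations were therefore also computed after median-of-ratios scaling, which divides each library by its median ratio to the typical library. The first principal component of 14613 genes, members and reference genes left out, held 48.6% of the variance and separated 79 libraries from 36, and these clusters were never pooled for a relation nor tested against each other. Tgm4 had a median of 7050 TPM in the 79 libraries and 1.83 TPM in the 36, while Chga had medians of 0.30 and 57.2 TPM. Tgm4 separated the 79 libraries again into 59 and 20, and Chga into 72 and 7. In bulk tissue, fewer cells of a type and less RNA per cell cannot be told apart.

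The start regions of Esr1 and Pgr are shown because the levels of these genes went together in the 36 libraries, as described below. Both are RefSeq sequences of GRCm38.p6 on the + strand, the Pgr window ending at the base before its start, chr9:8899583-8899832, and the Esr1 window preceding its second annotated start, chr10:4709908-4710154. Capitals in the Pgr window mark matches of letters, counted from the gene's start. In order these are TATAAA, the letters of a TATA box, on the other strand at -212, CCAAT, those of a CCAAT box, on the other strand at -67 and GGGCGG, those of a GC box, at -47. Whether any match acts as such an element was not tested.
Pgr: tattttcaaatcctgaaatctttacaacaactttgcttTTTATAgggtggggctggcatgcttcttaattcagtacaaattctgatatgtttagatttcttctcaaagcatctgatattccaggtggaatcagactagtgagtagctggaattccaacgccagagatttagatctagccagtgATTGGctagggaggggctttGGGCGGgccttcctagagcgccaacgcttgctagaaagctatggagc
Esr1: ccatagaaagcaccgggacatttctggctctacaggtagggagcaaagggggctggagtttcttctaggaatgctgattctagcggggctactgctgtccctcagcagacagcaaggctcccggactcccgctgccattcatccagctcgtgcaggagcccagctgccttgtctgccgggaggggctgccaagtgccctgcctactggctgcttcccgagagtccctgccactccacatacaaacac
The GC content was 43.6% in the Pgr window and 59.9% in the Esr1 window. The full estrogen response element GGTCANNNTGACC, searched on both strands, was in 0.0639% of 32851 promoter windows and in neither of these, and its half-site GGTCA, in 35.2% of windows, was in neither. The element GNACANNNTGTNC, which receptors of the glucocorticoid and progesterone type bind, was in 0.387% of windows, and the AP-1 site TGANTCA was in 6.75%, and neither window held them. TATAAA was in 12.4% of windows, CCAAT in 33.8% and GGGCGG in 32.7%, and the Esr1 window held none of these. A missing match says only that the letters are not in these windows.

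The genes lie on 8 chromosomes of GRCm38. Nr3c1 (18:39410545-39519421), Esr2 (12:76120419-76177259), Srd5a1 (13:69573449-69611442) and Srd5a2 (17:74016955-74047916) are on the minus strand, and Nr3c2 (8:76899442-77245012), Esr1 (10:4611593-5005614), Pgr (9:8899833-8968611) and Srd5a3 (5:76140271-76155504) are on the plus strand. The exons of Nr3c2 share bases with Gm10649 on the other strand, which had a median of 0.03 TPM. Those of Srd5a1 share 476 bases with Gm17108 on the same strand, at a median of 0.17 TPM. Of the reference genes, Tgm4 shares 830 of 4555 exon bases with Zdhhc3 on the other strand, at a median of 24.1 TPM. The library kit does not keep strand, so reads in the bases shared across strands cannot be assigned to one gene. For Srd5a1 and Gm17108 strand could not tell them apart in any kit. The part of Zdhhc3 reads in the low Tgm4 of the 36 libraries (median 1.83 TPM) was not tested.

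In the 79 libraries Nr3c1 and Esr1 were the most abundant members per transcript, followed by Srd5a3 and Nr3c2. Nr3c1 ranged from 3.59 to 25.1 TPM around a median of 11.3, and Esr1 from 0.30 to 32.7 around 9.87. Srd5a3 had a median of 6.55 TPM, between 2.50 and 10.8, and Nr3c2 one of 6.32 TPM, between 1.77 and 13.1. The neighbours in this order were close, since Nr3c1 was above Esr1 in 41 of the 79 libraries and Srd5a3 above Nr3c2 in 48. Srd5a2 stood at a median of 2.28 TPM (0 to 12.7), clear of Nr3c2, and was above Srd5a1 in 67 of 79 libraries. Srd5a1 had a median of 1.12 TPM (0.38 to 10.8), Esr2 one of 0.70 TPM (0.03 to 2.2) and Pgr one of 0.43 TPM (0.09 to 1.09). Of these neighbouring medians, only Nr3c2 and Srd5a2 had interquartile ranges that did not overlap.

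In the 36 libraries Nr3c1 was again the most abundant, with a median of 12.1 TPM between 6.16 and 35.5, and it was above Srd5a3 in all 36. Srd5a3 followed at 5.32 TPM (2.33 to 11.6) and then Srd5a1 at 2.98 TPM (1.42 to 9.70). Esr1 had nearly the same median as Srd5a1, 2.92 TPM, but the widest range of the members, from 0.26 to 105.5. Pgr was also spread widely, from 0.02 to 21.6 TPM around a median of 1.04. Nr3c2 was at a median of 0.40 TPM (0.10 to 7.93), Srd5a2 at 0.13 TPM (0 to 2.68) and Esr2 at 0.045 TPM (0.01 to 0.55). Srd5a1 was above Srd5a2 in 36 of 36 libraries. Interquartile ranges did not overlap between Nr3c1 and Srd5a3, Srd5a3 and Srd5a1, or Nr3c2 and Srd5a2.

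**Figure D1:**
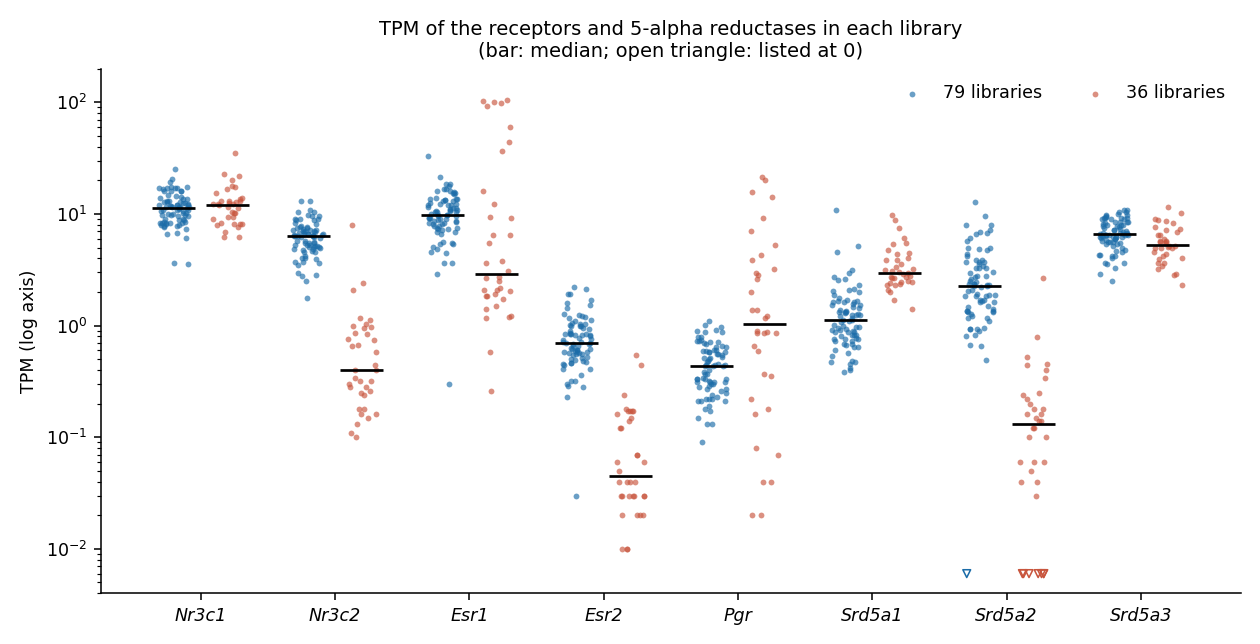
TPM (log axis) of each member in every library, with points in blue for the 79 libraries and in red for the 36, black bars at the medians, and open triangles for the 8 libraries that list Srd5a2 at 0. Nr3c1 and Srd5a3 sit in a narrow band in both clusters, while Esr1 and Pgr in the 36 libraries run from 0.26 to 105.5 TPM and from 0.02 to 21.6 TPM.

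Over the 79 and 36 libraries together, Nr3c1 and Srd5a3 were at 1 TPM or more in all of them. Esr1 reached 1 TPM in all but 3 libraries, Nr3c2 in 85, Srd5a1 in 80, Srd5a2 in 69, Esr2 in 21 and Pgr in 20. Within a library, Nr3c1 was above Nr3c2 in all but 1 and Esr1 was above Esr2 in all, so the glucocorticoid receptor and the alpha estrogen receptor were the more abundant of their kinds almost throughout. Only 1 library, W1154 of the 79, was lowest of its cluster in Nr3c1, Nr3c2, Esr1 (0.30 TPM), Esr2, Srd5a2 (listed at 0) and Srd5a3, and it also had the lowest Tgm4 (0.64 TPM). After median-of-ratios scaling it stayed lowest in Esr1, Esr2, Srd5a2 and Tgm4, but not in Nr3c1, Nr3c2 or Srd5a3. With a mean of 0.586 TPM, Esr2 was the 1 member of 8 under the mean of 1 TPM required of a gene tested on a reference gene. In the fits of members on each other it was kept despite this. Of the other 7, Pgr owed its mean of 1.43 TPM to the 36 libraries, mostly to the 8 of them with the highest Esr1.

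Against Tgm4, Esr1, Srd5a1 and Srd5a2 passed the test in the 59 libraries with Tgm4 at 2901 TPM or more, and no member passed elsewhere. The test was limma's, of log2(TPM + 1) on the log2 level of the reference gene, with Benjamini-Hochberg adjustment at 0.05 over every gene averaging at least 1 TPM. In the 59 libraries Esr1 rose with Tgm4 and Srd5a1 and Srd5a2 fell, which is 1 member higher and 2 lower of 7, where 19.5% and 16.3% of all genes were so called. After median-of-ratios scaling 4 of 7 members passed, where 61.3% of all genes did, so these counts are near the shares of all genes and nothing is read from them. In the 20 other libraries of that cluster no member passed the limma test (1 did at an unadjusted p under 0.05), where 0.219% of all genes did, and in the 36 libraries none did (2 unadjusted), where 2.74% did. The median-of-ratios scaling gave 0 in both as well, with 1 and 2 members at an unadjusted p under 0.05.

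Esr1 ranged from 4.43 to 18.6 TPM, with a median of 9.88, in the 59 libraries. Its correlation with Tgm4 was r = 0.40 (permutation p = 0.00209) and rho = 0.33 (permutation p = 0.0125), with a limma adjusted p of 0.00889. With the 2 most extreme Tgm4 libraries left out, r was 0.29 and the adjusted p 0.0664, so the call rests on those 2. After median-of-ratios scaling r was 0.52, with an adjusted p of 7.3e-05. Pioneer factors, which open chromatin for steroid receptors in prostate epithelium, went the same way, with 4 of 6 higher and 0 lower under both scalings, where 19.5% of all genes were higher as deposited and 30.3% after scaling, led by Hoxb13 (r = 0.61) and Gata2 (r = 0.54).

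Srd5a2, the reductase of the normal prostate, ranged from 0.49 to 6.93 TPM in these libraries, with a median of 1.87. It was lower where Tgm4 was higher, with r = -0.38 (permutation p = 0.00254), rho = -0.39 (permutation p = 0.00262) and a limma adjusted p of 0.0103. Srd5a1 ranged from 0.38 to 10.8 TPM with a median of 1, and its r with Tgm4 was -0.38 (permutation p = 0.00321), its rho -0.34 (permutation p = 0.0091) and its adjusted p 0.0113. Without the 2 farthest libraries r was -0.45 for Srd5a2 and -0.49 for Srd5a1, and after median-of-ratios scaling it was -0.32 and -0.48. With Chga and Col1a1 as covariates, the limma adjusted p was 0.114 for Srd5a2 and 0.155 for Srd5a1, and neither was called. Esr2 had r = -0.29, with a limma adjusted p of 0.083 when genes of low mean were kept.

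Srd5a3 had r = 0.24 with Tgm4 in the 59 libraries and was not called (limma adjusted p = 0.141), but it was after median-of-ratios scaling, with r = 0.42 and an adjusted p of 0.00257. With TPM rescaled without the 20 most abundant genes r was 0.061 and the limma adjusted p 0.719, so the call depended on the scaling. The dolichol and early N-glycan genes, which act in the pathway Srd5a3 feeds, were higher with Tgm4 in 13 of 20 as deposited and in 17 of 20 after that scaling, with 0 lower in both. The leading ones were Dpagt1 (r = 0.70), which starts the dolichol-linked glycan, Alg12 (r = 0.69), a mannosyltransferase, Dpm2 (r = 0.64) and Nus1 (r = 0.64). Here 19.5% of all genes were higher and 16.3% lower as deposited, and 30.3% were higher and 31.1% lower after median-of-ratios scaling.

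**Figure D2:**
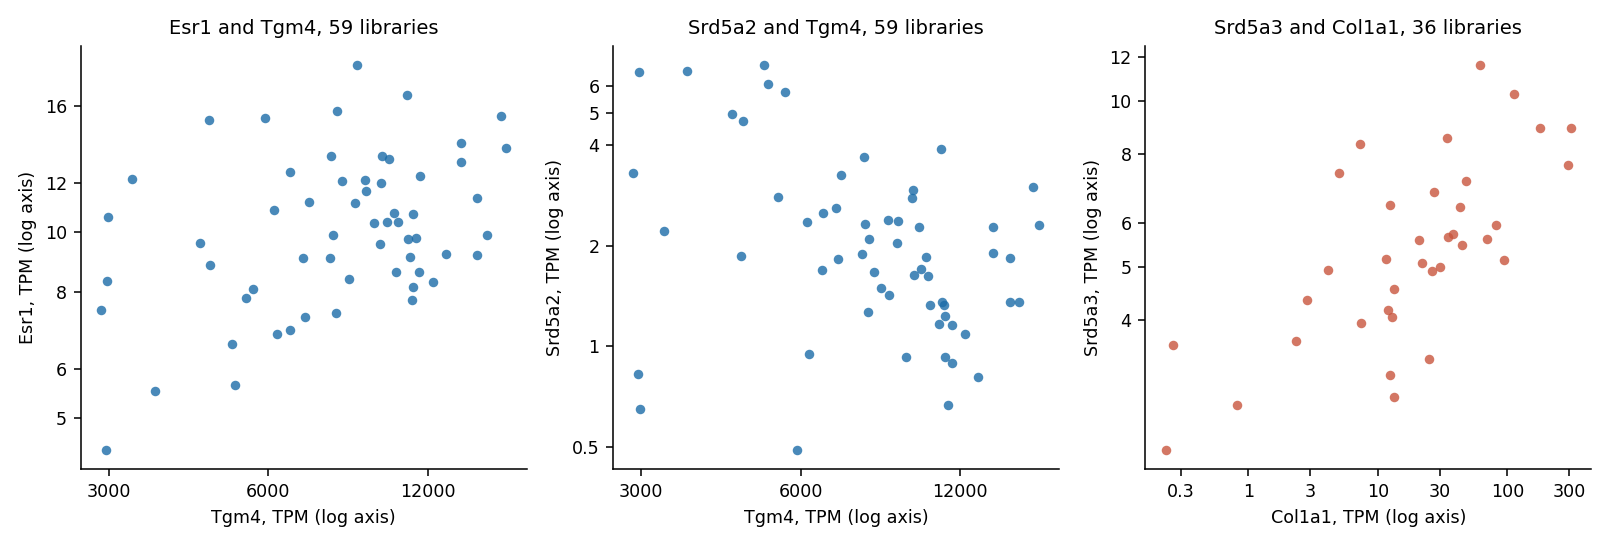
Esr1 and Srd5a2 against Tgm4 in 59 libraries and Srd5a3 against Col1a1 in 36 libraries, in TPM on log axes, 1 point a library. The points rise for Esr1 (r = 0.40), fall for Srd5a2 (r = -0.38) and rise for Srd5a3 (r = 0.68).

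Against Chga, Srd5a1 was the only member called from deposited TPM, and after median-of-ratios scaling Srd5a2 in the 72 libraries and Nr3c1 in the 36 were called too. In the 72 libraries of lower Chga, 0 of 7 members passed the limma test (2 at an unadjusted p under 0.05) against 0.869% of all genes, and Srd5a2 alone passed after median-of-ratios scaling (r = 0.37, adjusted p = 0.0251), where 7.33% of all genes did. In the 7 libraries of higher Chga no member and 0% of all genes passed limma, and no member had an unadjusted p under 0.05 in either scaling. In the 36 libraries 1 member was lower and 0 higher of 7, where 24.2% and 9.94% of all genes were so called.

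That member was Srd5a1, with r = -0.64 with Chga (permutation p = 8e-05), rho = -0.32 (permutation p = 0.0551) and a limma adjusted p of 0.000394. The relation rests on 4 libraries, W1118, W1050, W1915 and W1790, whose Chga was 0.15, 1.15, 1.23 and 2.55 TPM and whose Srd5a1 was 5.36, 8.74, 7.44 and 9.70 TPM. The other 32 libraries had Chga from 21.2 TPM up. Without the 4, r was -0.13 and the adjusted p 0.715, so no relation was detectable. The same 4 libraries stood apart in cell-type markers. Their 8 summed neuroendocrine markers reached 0.55 to 24.3 TPM, against 92.7 to 619.6 TPM in the other 32, and their 8 summed fibroblast markers 516.4 to 1693 TPM, against 28.7 to 651.8 TPM. Their Pgr was at 0.02 to 0.07 TPM. The part of these cell types in the Srd5a1 values was not tested.

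For Nr3c1 the part of those 4 libraries depended on the scaling. Its r with Chga over the 36 was 0.28, with a limma adjusted p of 0.184, and without the 4 it was 0.56, with an adjusted p of 0.0193, where 9.31% of genes were called. After median-of-ratios scaling r was 0.44 over the 36 libraries, a call (adjusted p = 0.0205), and 0.46 without the 4, which was not called (adjusted p = 0.137) at nearly the same r. The library with the highest Nr3c1, W1065 at 35.5 TPM, also had the highest Chga, 479.1 TPM.

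**Figure D3:**
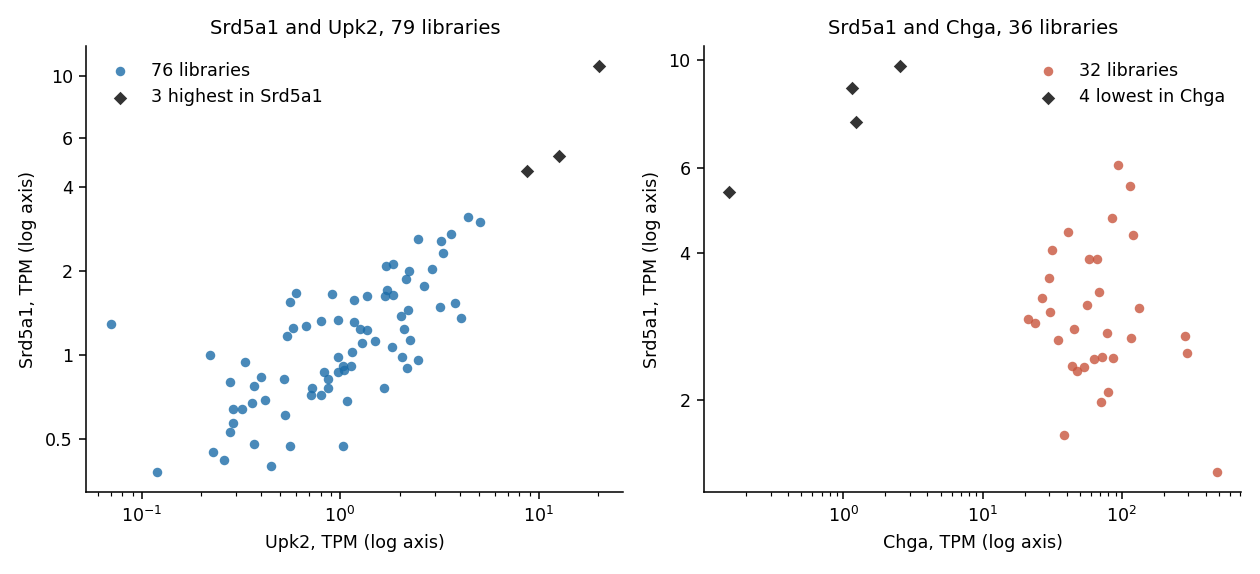
Srd5a1 against Upk2 in the 79 libraries and against Chga in the 36 libraries, in TPM on log axes, with diamonds for the 3 libraries highest in Srd5a1 (left) and the 4 lowest in Chga (right). Srd5a1 rises with Upk2 with and without the diamonds (r = 0.86 and 0.75), while its fall with Chga (r = -0.64) is carried by the 4 diamonds (r = -0.13 without them).

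Against Col1a1, 3 members were higher and 0 lower of 7 in the 79 libraries, where 53% and 3.54% of all genes were so called. These were Nr3c1 (r = 0.43, limma adjusted p = 0.000353), Srd5a2 (r = 0.29, adjusted p = 0.0174) and Srd5a3 (r = 0.29, adjusted p = 0.0193). After median-of-ratios scaling none of the 3 was called, and Srd5a3 turned to r = -0.10. In their place Nr3c2 (r = -0.56, adjusted p = 1.5e-06), Esr1 (r = -0.44, adjusted p = 0.000232) and Pgr (r = -0.28, adjusted p = 0.0313) were lower where Col1a1 was higher, when 20.5% of genes were higher and 22% lower. With TPM rescaled without the 20 most abundant genes, Nr3c1 (r = 0.30, limma adjusted p = 0.0231), Nr3c2 (r = -0.37, 0.00339) and Esr1 (r = -0.30, 0.0192) were called. Pgr (r = -0.20, 0.135), Srd5a2 (r = 0.21, 0.116) and Srd5a3 (r = 0.035, 0.828) were not. In these libraries, then, which members go with Col1a1 depends on the scaling.

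Over the 36 libraries Srd5a3 and Srd5a1 were higher with Col1a1, which is 2 of 7 higher and 0 lower, where 44.5% and 14% of all genes were so called. Srd5a3 had r = 0.68 and rho = 0.67 (both with a permutation p of 1e-05, the smallest that 100000 resamples give) and a limma adjusted p of 3.9e-05. It was lowest in W1103, at 2.33 TPM with Col1a1 at 0.23 TPM, and next lowest in W4202, at 2.81 TPM with Col1a1 at 0.82 TPM. It was highest in W1182 at 11.6 TPM, followed by W1915, W1050 and W1790, 3 of the libraries with almost no Chga. Without the 4 libraries of low Chga r was 0.57 (adjusted p = 0.00635, where 24.3% of genes were called), and after median-of-ratios scaling it was 0.57 with all 36 (adjusted p = 0.00111) and 0.54 without the 4 (adjusted p = 0.0117). The relation of Srd5a3 to this collagen held under each of these settings, in which genes were fitted on Col1a1. When genes were fitted on Srd5a3 after median-of-ratios scaling, none passed limma, Col1a1 included (3528 had an unadjusted p under 0.05).

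Srd5a1 was called with Col1a1 at r = 0.45 (permutation p = 0.00603, limma adjusted p = 0.0119) and rho = 0.32 (permutation p = 0.0612). Without the 4 libraries of low Chga r was 0.046 with an adjusted p of 0.873, and after median-of-ratios scaling the adjusted p was 0.165. Dolichol and early N-glycan genes rose with Col1a1 in 16 of 20 with 0 lower as deposited, where 44.5% of all genes were higher and 14% lower. After scaling 11 rose and 1 was lower, where 28.8% of all genes were higher and 27.7% lower. Without the 4 libraries of low Chga 9 of 20 rose and 0 fell in deposited TPM, where 21% of all genes were higher and 3.24% lower. The list was led over the 36 libraries by Alg1 (r = 0.77) and Alg5 (r = 0.76), both glycosyltransferases of that pathway.

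**Figure D4:**
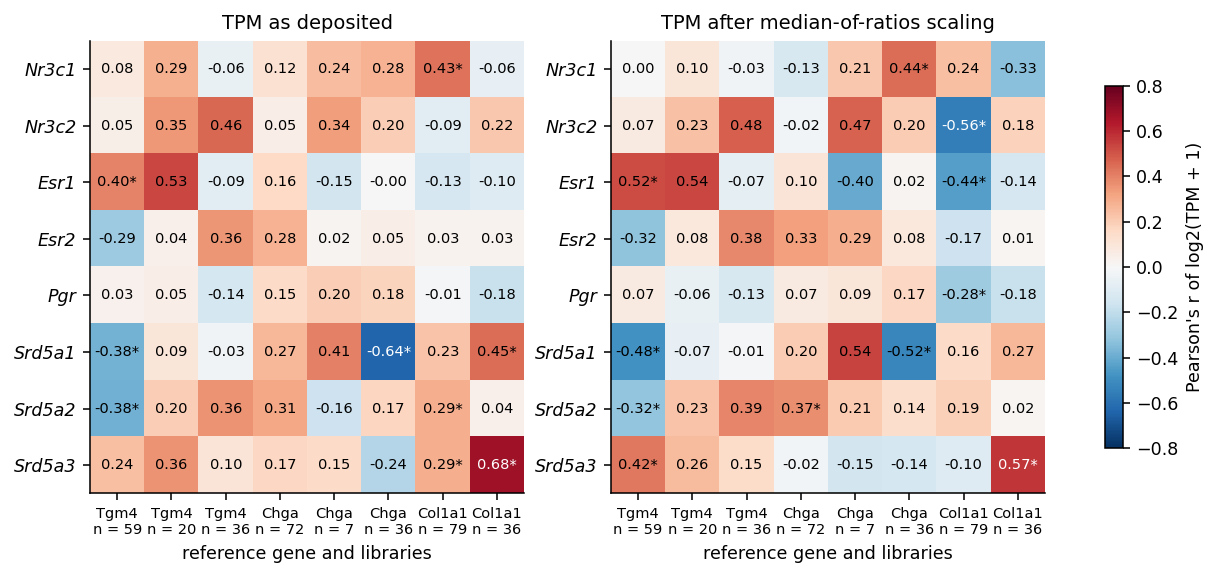
Pearson's r of log2(TPM + 1) between each member and each reference gene, in the libraries named under each column, from deposited TPM (left) and after median-of-ratios scaling (right). A star marks an adjusted p under 0.05 over all genes by limma, which Esr2 did not enter. Srd5a3 with Col1a1 in 36 libraries (0.68 and 0.57) and Esr1 with Tgm4 in 59 (0.40 and 0.52) are starred on both sides.

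Esr1 and Pgr had their highest levels in the same libraries. Esr1 itself separated the 36 libraries into 8 and 28. In the upper 8 Esr1 was 105.5 TPM in W407, 102.3 in W897, 100.6 in W4356, 99.01 in W1512, 92.5 in W1052, 60.1 in W462, 43.6 in W4162 and 36.4 in W1514. In the same order Pgr was 21.6, 15.6, 14.2, 20.3, 7.07, 5.30, 4.28 and 9.15 TPM. The other 28 libraries had Esr1 from 0.26 to 15.9 TPM with a median of 2.12, and Pgr from 0.02 to 3.85 TPM with a median of 0.86, so neither gene overlapped between the 8 and the 28. For Esr1 the choice of the 8 fixes this. Of 14622 other genes, 2 (0.0137%) were higher in all of the 8 than in any of the 28, namely Pgr and Sox18, and 3 were after median-of-ratios scaling, Pgr among them. Pgr reached the mean of 1 TPM required of these genes only through the 8 libraries, so nothing is read from its place in that share.

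Within the 28 libraries, where Esr1 did not separate further by the same criteria, Pgr still rose with Esr1. Pearson's r was 0.75 (permutation p = 1e-05, the smallest given) and rho 0.65 (permutation p = 0.00028). Pgr was the only gene that passed limma there (adjusted p = 0.0431), so that 0.00684% of all genes were called. Without the 2 libraries farthest in Esr1 r was 0.64, and after median-of-ratios scaling it was 0.78 with an adjusted p of 0.0129. With TPM rescaled without the 20 most abundant genes r was 0.75, but the call was lost (adjusted p = 0.0529). Within the 8 libraries r was 0.70 (exact permutation p = 0.0607) and rho 0.79 (exact permutation p = 0.0279). In the 79 libraries, where Pgr never exceeded 1.09 TPM, r was 0.35 (permutation p = 0.00147, limma adjusted p = 0.00311), and after median-of-ratios scaling it was 0.20, which was not called (adjusted p = 0.141).

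Other genes of estrogen and progesterone response varied in whether they went with Pgr. Greb1, an estrogen-induced coactivator, was the 1 of 6 others tested that rose with Pgr over the 36 libraries (r = 0.55, limma adjusted p = 0.0276, and 0.59 with 0.0108 after median-of-ratios scaling), where 1.48% of all genes were higher and 0.527% lower. Greb1 reached 3.37 to 28.5 TPM in the 8 libraries of high Esr1 and 0.64 to 10.4 TPM in the 28. In the 79 libraries Greb1 was not called with Pgr, at r = 0.16 (limma adjusted p = 0.179) and 0.30 after scaling (0.0717). Of the 8 neuroendocrine markers, Scg2 (r = 0.86) and Sez6 (r = 0.62) rose with Pgr over the 36 libraries and none fell. These fits on Pgr span the 8 libraries and the 28, between which Pgr did not overlap. No fit on Pgr was made within the 28 alone, so the difference between the 8 and the 28 may carry these values. Chga in the 8 libraries was 29.96 to 68.1 TPM, inside the range of the others, and their 8 summed neuroendocrine markers reached 151 to 619.6 TPM, against 0.55 to 600.9 TPM. Chosen after their values were seen, Sox18, an endothelial transcription factor, was at 6.41 to 28.8 TPM in the 8 libraries against 0.16 to 5.38 TPM in the 28, and the oxytocin receptor Oxtr at 3.97 to 23.1 against 0.03 to 6.08 TPM. The 6 summed endothelial markers, from 4.43 to 31.3 TPM in the 8 libraries, lay inside the range of the 28, from 4.34 to 116.2 TPM.

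In the 79 libraries the levels of Esr1 went with those of pioneer factors. Of 6 such genes 5 rose and 1 fell with Esr1, and the counts were the same after median-of-ratios scaling, where 19% of all genes were higher and 20.9% lower. As deposited, 70.4% of all genes were higher and 1.13% lower. Gata2 had r = 0.78 (0.76 after scaling), Foxa1 0.72 (0.65), Gata3 0.70 (0.71) and Tfap2c 0.63 (0.48), while Foxa2, a factor of neuroendocrine prostate tumors, had r = -0.53 (-0.54). Without library W1154, which had almost no Esr1, 5 rose and none fell. All 12 coregulators rose with Esr1, and 6 of them did after scaling, led by Med1 (r = 0.74 and 0.59) and Carm1 (0.73 and 0.57). Greb1 rose with Esr1 under both scalings (r = 0.37 and 0.53). The 8 fibroblast markers had no call as deposited and were all lower after scaling, Pdgfra having r = -0.16 and -0.57. Of 7 secretory genes of the seminal vesicle 1 was lower with Esr1 as deposited and 0 after scaling, but without W1154 all 7 were lower in deposited TPM (median r = -0.37), where 0.882% of all genes were.

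Nr3c1 went with stromal and endothelial genes in the 79 libraries. As deposited, 91.4% of all genes rose with Nr3c1 and 0.458% fell, so that counts of higher genes say little, and after median-of-ratios scaling 10.9% rose and 7.71% fell. After that scaling 8 of 8 fibroblast markers, 7 of 8 smooth muscle markers and 6 of 6 endothelial markers were higher, with 0 lower. The reference gene Col1a1 itself was not called with Nr3c1 after scaling (r = 0.24, limma adjusted p = 0.0723). Library W4548 had the highest scaled Nr3c1 of the 79 (18.3) and the highest sums of fibroblast (5413 TPM) and endothelial (111.2 TPM) markers. The counts were not repeated without it. Dcn, a matrix proteoglycan, had r = 0.76 (0.54 after scaling), Lmod1 of smooth muscle 0.71 (0.45), and Pecam1 (0.76 and 0.57) and Tek (0.74 and 0.61) of endothelium were alike. Of 12 genes known to be induced by glucocorticoids, 9 were higher as deposited and 1 after scaling, which was Klf9 (r = 0.86 and 0.31). In the 36 libraries none of the 12 passed limma, where 0.246% of all genes did, and Fkbp5, the chaperone most often used as a sign of glucocorticoid action, had r = 0.57 with an adjusted p of 0.0558.

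Nr3c2 was higher where fibroblast and leukocyte markers were lower, once libraries were rescaled. After median-of-ratios scaling, 8 of 8 fibroblast markers and 7 of 7 leukocyte markers were lower where Nr3c2 was higher in the 79 libraries, and 9 of 12 coregulators were higher, where 16.1% of all genes were higher and 14.4% lower. As deposited 1 fibroblast, 5 leukocyte and 12 coregulator genes were higher, none of the 3 lists had a lower gene, and 84% of all genes were higher (0.486% lower). Ncor1, a corepressor, had r = 0.81 (0.51 after scaling), and Col6a1 had 0.13 (-0.62). The 7 proliferation markers called after scaling were lower as well, among them Cdk1 (r = 0.26 and -0.32).

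Of the 36 libraries, W4419 held the highest Nr3c2 (7.93 TPM), Srd5a2 (2.68 TPM) and Esr2 (0.55 TPM), and it had 195.4 TPM of Tgm4 with 21.2 TPM of Chga. With it, Nr3c2 was correlated with Srd5a2 at r = 0.81 (permutation p = 6e-05), rho = 0.50 (permutation p = 0.00181) and a limma adjusted p of 1.5e-05. Without it r was 0.54 and the adjusted p 0.179. In the same way Nr3c2 and Esr2 went from r = 0.72 to 0.50 (adjusted p = 0.0187 and 0.403), and Esr2 and Srd5a2 from 0.69 to 0.41 (adjusted p = 0.00171 and 0.627), where 1.71% of all genes were called with Esr2. With W4419, 7 of 8 smooth muscle markers rose and 7 of 8 proliferation markers fell with Nr3c2, where 5.15% and 1.79% of all genes did, and without it 0 of either passed limma, where 0.411% and 0% of all genes did and 1767 genes had an unadjusted p under 0.05. These calls therefore rest on 1 library.

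Among the members themselves, 18 of 28 pairs were positive and called in the 79 libraries, with a median r of 0.34, where 36 to 91.4% of all genes were higher with a member other than Pgr. Much of this count depended on the scaling, since after median-of-ratios scaling 8 pairs were called and the median r was -0.04, where 10 to 23.2% of all genes were higher and 7.71 to 23.6% lower with such a member. Nr3c1 and Srd5a3 fell from r = 0.81 to 0.016. The 6 pairs called under both scalings were Nr3c2 with Esr1 (r = 0.63 and 0.42), with Esr2 (0.54 and 0.41) and with Pgr (0.57 and 0.42), Esr2 with Pgr (0.46 and 0.30) and with Srd5a2 (0.53 and 0.56), and Srd5a1 with Srd5a2 (0.41 and 0.33). The pair of Esr2 and Srd5a2 kept its value, with rho = 0.55 (permutation p = 1e-05, the smallest given) and limma adjusted p of 7.8e-06 and 5.2e-06. Esr1 and Srd5a2 had r = -0.09, which without library W1154 was -0.30 with an adjusted p of 0.0143. Across the 36 libraries 4 of the 21 pairs that leave out Esr1 were called, 3 of them those of W4419 above and the fourth Srd5a1 with Srd5a3 (r = 0.40, adjusted p = 0.0347), which was not called after scaling (r = 0.12). The shares of all genes higher in these libraries were 47.4% with Srd5a3, 35% with Srd5a1 and 5.15% with Nr3c2.

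Srd5a2 went with genes of the seminal vesicle in the 79 libraries. Of 7 such secretory genes, 4 were higher with Srd5a2 as deposited and 7 after median-of-ratios scaling, with 0 lower, where 36% and 23.2% of all genes were higher (4.3% and 23.6% lower). Pate4 had r = 0.47 (0.51 after scaling) and Svs2 0.45 (0.50). The sum of the 7 genes ran from 1.9 to 171542 TPM over these libraries, and the part of seminal vesicle tissue in the Srd5a2 values was not tested. All 8 proliferation markers were lower after scaling, Top2a having r = -0.21 and -0.48, and none was called as deposited. Of the estrogen-responsive genes, Cxcl12 (r = 0.55 and 0.43) and Igf1 (0.51 and 0.43) were higher. Esr2 resembled Srd5a2 in having 8 of 8 proliferation markers lower after scaling and 0 as deposited, and 7 of 12 coregulators higher (12 as deposited), with Nrip1 at r = 0.69 and 0.61, where 15.6% of all genes were higher and 14.9% lower (58.9% and 0.54% as deposited). Libraries W5000 to W5005 had the lowest summed proliferation markers of the 79, 4.27 to 7.33 TPM against a median of 41.9 TPM. After scaling W5005, W5003 and W5000 held the highest Srd5a2 (21.7, 13.6 and 8.27), with Esr2 at 2.90, 1.59 and 1.76. In W5002 and W5004 Esr2 was 0.87 and 0.79, near the scaled median of 0.77. The part of these libraries in the proliferation counts was not tested.

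Srd5a1 was highest in libraries with much Upk2, a uroplakin of the urothelial surface, among the 79. Its highest values were 10.8 TPM in W4360, 5.17 in W5003 and 4.57 in W5001, and these libraries had 20.1, 12.7 and 8.78 TPM of Upk2, whose median was 1.08 TPM. The genes with the most similar pattern over these 79 libraries were Fmo5 (r = 0.90), Syt16 (0.87), Upk2 (0.86), Tmem229a (0.84) and Tnnt2 (0.84), and their r was 0.82 to 0.90 after median-of-ratios scaling. Without the 3 libraries their r was 0.71 to 0.84. Of the uroplakins, chosen after values were seen, 4 had a mean of 1 TPM or more, and 3 of these rose with Srd5a1 under both scalings, Upk1a (r = 0.66, 0.53 after scaling), Upk2 (0.86 and 0.82) and Upk3a (0.81 and 0.84), while Upk1b had r = 0.20 and -0.10. For all genes the shares higher with Srd5a1 were 44.9% and 10%. The 5 summed uroplakins were at 45.5 to 355.8 TPM in the 6 libraries highest in Srd5a1 and at 1.27 to 239.3 TPM in the other 73, and the ranges overlapped. The part of urothelium in the Srd5a1 values was not tested.

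Markers of other cell types moved with Srd5a1 too. Of 8 neuroendocrine markers 6 rose and 0 fell with it, and 5 did after scaling, where 44.9% and 10% of all genes were higher (0.39% and 8.48% lower), with Scg3 at r = 0.70 and 0.68. Their sum was 6.29 to 52.1 TPM in the 6 libraries highest in Srd5a1 and 0.06 to 17.99 TPM in the other 73. Of 5 basal markers 3 rose, led by the keratin Krt5 (r = 0.64 and 0.63) and Trp63 (0.55 and 0.49), and after scaling Itga6 was lower (r = -0.36). Over the 36 libraries 5 of 8 neuroendocrine markers fell with Srd5a1, where 35% of all genes rose and 10.5% fell. Without the 4 libraries of low Chga 0 of 14612 genes passed limma (929 at an unadjusted p under 0.05). The difference between the clusters was not tested.

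Srd5a3 went with proliferation genes in the 79 libraries. After median-of-ratios scaling 7 of 8 proliferation markers were higher, Mki67 having r = 0.69 (0.34 after scaling) and Cdk1 0.66 (0.37), where 17.5% of all genes were higher and 15.9% lower. As deposited 8 of 8 were, where 87.1% of all genes were higher and 0.574% lower. Libraries W5000 to W5005, the lowest in proliferation markers, had scaled Srd5a3 of 5.06 to 6.08, under the scaled median of 6.94. Their part in these counts was not tested. All 20 dolichol and early N-glycan genes were higher as deposited and 5 after scaling, among them Mpdu1 (r = 0.79 and 0.36), needed to use dolichol-linked sugars, and Alg1 (0.78 and 0.37), the first mannosyltransferase. These counts of dolichol and N-glycan genes are near the shares of all genes, and nothing is read from them. Among the 36 libraries 17 of 20 were higher, where 47.4% of all genes were (2.46% were lower), and after scaling no gene at all passed limma (3528 had an unadjusted p under 0.05). Without the 4 libraries of low Chga, 9 of 20 were higher (median r = 0.39), where 15.2% of all genes were. In that setting 5 of 6 endothelial markers (median r = 0.57) and 5 of 8 fibroblast markers (0.49) were higher too, and 0 of 8 proliferation markers (0.016).

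The genes whose levels most resembled each member over the 79 libraries differed in how they took the scaling. For Esr1 they were Dock5 (r = 0.89, 0.86 after scaling), Slc35b4 (0.87 and 0.81), Efcab14 (0.87 and 0.78), Ctnnd1 (0.87 and 0.76) and Tnks (0.86 and 0.75). For Srd5a2 they were Eya1 (0.77 and 0.77), Prob1 (0.76 and 0.73), Trpv6 (0.76 and 0.77), Lgi3 (0.75 and 0.75) and Mpp3 (0.74 and 0.72). For Srd5a3 they included Add1 (0.93 and 0.54), Cap1 (0.92 and 0.60), Mboat7 (0.92 and 0.55) and Arpc2 (0.92 and 0.55). The neighbours of Esr1, Srd5a1 and Srd5a2 thus kept most of their r, and those of Srd5a3 lost more. For Nr3c1 they were Hipk3 (0.96 and 0.72), Sptan1, Mbnl1, Cul5 and Spag9 (0.94 to 0.95, and 0.51 to 0.69 after scaling). For Nr3c2 they were Ralgapb, Mfsd6, Arhgap32, Tango2 and Gpbp1l1 (0.84 each, 0.60 to 0.64 after scaling). For Pgr, low in these libraries, they were Ddi2 (0.68 and 0.61), Six4, Myo5c, Slc35f5 and Rnf103 (0.64 to 0.67, and 0.48 to 0.56).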

How the data were processed

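Prostate RNA of transgene-positive F2 males was sequenced after ribosomal RNA depletion with a kit that does not keep strand. The authors trimmed reads, mapped them with Bowtie2 2.2.5 to transcripts that carry both parents' alleles, built by Seqnature on GRCm38, and quantified genes with RSEM 1.2.20, and they deposited TPM, with base calls from CASAVA 1.8.2 per the labels. The annotation used is not given in the sources used here, and positions are those of GENCODE M21. TPM keeps no depth, so no count model or interval was used, and the number of libraries alone sets the precision.

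Separation of libraries required a BIC fall of over 10 for 2 normal components against a single one, an Ashman D above 2 and 6 or more libraries in each. Within parts, log2(TPM + 1) of each gene with a mean of at least 1 TPM (14623 genes) was fitted on a reference gene or member with limma 3.58.1 in R 4.3.3, with Benjamini-Hochberg adjustment over all genes. Esr2, under that mean, was kept in the fits on a member. Pearson's r and Spearman's rho had two-sided tests of 100000 resamples, exact under 10 libraries (scipy 1.17.1). Median-of-ratios scaling used 12986 genes above 0 in every library. The p-values measure the spread between mice. Genes named were the members, the references, the 5 genes most correlated with a member in the 79 libraries, and for pathway and marker lists up to 4 genes of largest r, beside those said to be chosen otherwise. One of these genes is not reported here. The pathway and marker lists and the members were chosen with earlier results of these data known. The fits were tested on simulated data.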

Additional observations from a re-analysis of the deposited data

How the results depend on the processing

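Shares or counts of genes called moved by over 1.5 times as follows. On Tgm4 in 59 libraries, 35.8% (5235 genes) became 61.3% (8968) with median-of-ratios scaling and 55.3% (8078) when TPM was rescaled without the 20 most abundant genes, and 26% of a larger set (9278) with no filter. On Tgm4 in 20 libraries, 0.219% (32 genes) became 0.726% with a pseudocount of 0.1, 0.411% (60) with median of ratios, 0.877% (128) without the 20 genes, 0.0622% (21) with no filter, 0.103% (15) with the other 2 reference genes as covariates and 0.0891% (13) without the 2 farthest libraries. On Tgm4 in 36 libraries, 2.74% (401 genes) became 0.996% of a larger set (385) with no filter and 0.0274% (4 genes) without the 2 farthest libraries, which are the 2 highest in Tgm4. On Chga in 72 libraries, 0.869% (127 genes) became 7.33% (1072) with median of ratios, 1.33% (194) without the 20 genes and 0.568% (83) without the 2 farthest, and 0.76% of a larger set (276) with no filter. On Chga in 7 libraries, 0 genes by limma (368 at an unadjusted p under 0.05) became 10 (0.0687%) with covariates. On Chga in 36 libraries, 34.1% (4986 genes) became 16.3% of a larger set (6288) with no filter, 17.7% (2582) with covariates, 8.52% (1245) without the 2 farthest, 9.31% (1360) without the 4 libraries of lowest Chga and 1.3% (190) with median of ratios as well. On Col1a1 in 79 libraries, 56.5% (8263 genes) became 38.2% of a larger set (13971) with no filter, and in 36 libraries 58.4% (8537 genes) became 29.5% of a larger set (11416) with no filter, 24.3% (3548) without those 4 libraries and 28.3% (4130) with median of ratios as well. The settings that leave out the 4 libraries, W4419, W1154, the 2 libraries of highest Tgm4 or the 3 of highest Srd5a1 were chosen after seeing the data.

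Median-of-ratios scaling reversed 1 member on Col1a1 in 79 libraries, Srd5a3 (slope -0.0174), and changed the sign of 14 of 28 member pairs there, 9 of which were called in at least 1 of the scalings, with r of -0.131 for Nr3c1 and Nr3c2, -0.162 for Nr3c1 and Esr2, -0.158 for Nr3c1 and Pgr, -0.033 for Nr3c1 and Srd5a1, -0.0397 for Nr3c2 and Srd5a1, -0.146 for Nr3c2 and Srd5a3, -0.279 for Esr1 and Srd5a1, -0.353 for Esr2 and Srd5a3 and -0.0559 for Pgr and Srd5a3. With the 4 libraries also left out, the slope of Srd5a1 on Col1a1 in 36 libraries was -0.00681. The causes were not tested. Of the 56 tests of a member on a reference gene, 46 kept their side of the threshold and 38 their direction as well under median of ratios, 55 and 52 with a pseudocount of 0.1, and 54 and 39 without the 2 farthest libraries. Apart from Srd5a3 on Col1a1 these changes of sign were in values never called. No paired analysis was possible because all mice belong to 1 group and no label ties any to another.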
